A study of Rattus norvegicus with 20 samples.

Results

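The genes described here are 9 negative regulators of mitogen-activated protein kinase (MAPK) signalling. With earlier results of these data known, they were chosen by their symbols from a fixed list. They comprise 5 MAPK phosphatases (Dusp1, Dusp4, Dusp5, Dusp6 and Dusp8) and 4 genes of the Sprouty and Spred families (Spry2, Spry4, Spred1 and Spred2), of 32402 genes in the tables. All 9 were found, and all 9 passed the filter on low values. They were measured by RNA sequencing of the supraoptic nucleus (SON), the hypothalamic nucleus whose magnocellular neurons make vasopressin and oxytocin. The rats were male Wistar Han, aged 3 months (adult) or 18 months (aged), and were either euhydrated (EH) with free access to water or dehydrated (DH). The groups were adult EH, adult DH, aged EH and aged DH, with 5 rats each. The sample labels give DH as 2 days and the paper's methods as 72 h without water. Each library was made from bilateral punches of the SON of 1 rat. According to the methods, both ages were handled side by side, with punches, RNA and sequencing done together.

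MAPK cascades carry signals from receptors at the cell surface, through kinases that phosphorylate one another in turn, to ERK, JNK or p38 and from there to transcription factors. Many of the genes that these kinases switch on encode proteins that switch the kinases off again. The MAPK phosphatases do this by removing phosphate from both the threonine and the tyrosine of the activated kinase. Sprouty and Spred proteins act further upstream and limit the activation of Ras below receptor tyrosine kinases. In neurons several of these transcripts are induced by electrical activity and calcium entry, and osmotic stimulation is a classical means of activating the magnocellular neurons of the SON.

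The values are normalized counts, that is, reads counted on a gene divided by the size factor of the library. They come in 3 tables, each scaled over its own 10 libraries, so levels from different tables are set side by side with that limit. In the adult table whole reads could be recovered, and they summed to between 24268398 and 28491926 per rat. Normalized counts summed to between 27801540 and 28689164 per rat in the aged table and to between 27033161 and 28301320 in the ageing table. Levels are compared between rats and not between genes, because counts were not divided by gene length. Groups were compared by a two-sided limma test after 1 was added to each normalized count and log2 taken. The p-values were adjusted by the Benjamini-Hochberg method across every gene in the test, and the threshold was 0.05. A log2 fold change (LFC) is on that scale, and a gene past the threshold is said to be called. The magnocellular markers Avp, which encodes vasopressin, and Oxt, which encodes oxytocin, were present in every library, and no marker of that list was at 0 throughout a group.

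The sequence before the transcription start is shown for the members whose windows held the most matches to response elements of activity-induced genes (Dusp1 and Dusp5) and for Spred2, a gene called under DH at both ages with a match close to its start. RefSeq held the start of 8 of the 9 members on the rat assembly GRCr8, and Dusp4 was without an entry. The motifs searched on both strands were the cyclic AMP response element (CRE, TGACGTCA), the CRE core TGACG that lies within it, the AP-1 sites TGACTCA and TGAGTCA, the CArG box bound by serum response factor, the ETS site CCGGAAGT, the EGR site GCGTGGGCG and TATAAA. Each line gives the 250 bases before the start, 5′ to 3′ on the strand of the gene, with matches in capitals.
Dusp1, chr10:17184603-17184852, plus strand: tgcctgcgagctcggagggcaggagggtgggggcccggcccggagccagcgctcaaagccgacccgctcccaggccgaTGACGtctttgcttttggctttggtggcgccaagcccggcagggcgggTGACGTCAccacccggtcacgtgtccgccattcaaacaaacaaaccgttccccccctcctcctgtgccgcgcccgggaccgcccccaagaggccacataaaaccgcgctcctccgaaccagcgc
Dusp5, chr1:262543524-262543773, plus strand: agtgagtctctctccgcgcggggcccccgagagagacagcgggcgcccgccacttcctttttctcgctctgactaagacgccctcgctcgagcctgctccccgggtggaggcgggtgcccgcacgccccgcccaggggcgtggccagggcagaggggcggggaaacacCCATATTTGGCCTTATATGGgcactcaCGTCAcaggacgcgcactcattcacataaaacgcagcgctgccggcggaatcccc
Spred2, chr14:98350327-98350576, plus strand: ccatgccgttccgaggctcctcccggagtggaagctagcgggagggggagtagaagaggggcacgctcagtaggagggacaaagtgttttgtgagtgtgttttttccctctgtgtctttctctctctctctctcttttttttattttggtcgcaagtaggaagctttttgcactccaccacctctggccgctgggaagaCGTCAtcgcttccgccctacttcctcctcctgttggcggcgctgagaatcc

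Dusp1 held a full CRE from -124 to -117, counted from the start site, and a further CRE core from -172 to -168. Of 33469 rat promoter windows of the same length, 1.59% held a full CRE and 18.2% the core. Dusp5 held 2 adjacent CArG boxes, from -82 to -73 and from -72 to -63, and a CRE core from -55 to -51. A CArG box was found in 1.497% of all windows. Spred2 held a CRE core from -51 to -47, and Spry2 held one from -219 to -215 in 1 of its windows. None of these motifs was found in the windows of Dusp6, Dusp8, Spry4 and Spred1. AP-1, ETS, EGR and TATAAA matches, present in 4.05%, 3.10%, 0.478% and 12.9% of all windows, were found in no member.

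The first comparison asked which of the genes responded to DH in adult rats. In adult DH limma called 6 of 9 members higher and none lower, whereas it called 7.67% of 15280 genes higher and 4.99% lower. The called members were Dusp1, Dusp4, Dusp6, Spry2, Spry4 and Spred2, with rises of 1.22- to 1.73-fold. Dusp5, Dusp8 and Spred1 did not pass the test. The 5 DH rats lay above all 5 EH rats in 5 of 9 members (Dusp1, Dusp4, Spry2, Spry4 and Spred2), against 6.81% of all genes tested. The median LFC of the 9 members was 0.38 and that of all genes was -0.01. In bulk tissue, more RNA per cell and more cells of the type that makes it cannot be told apart.

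**Figure D1:**
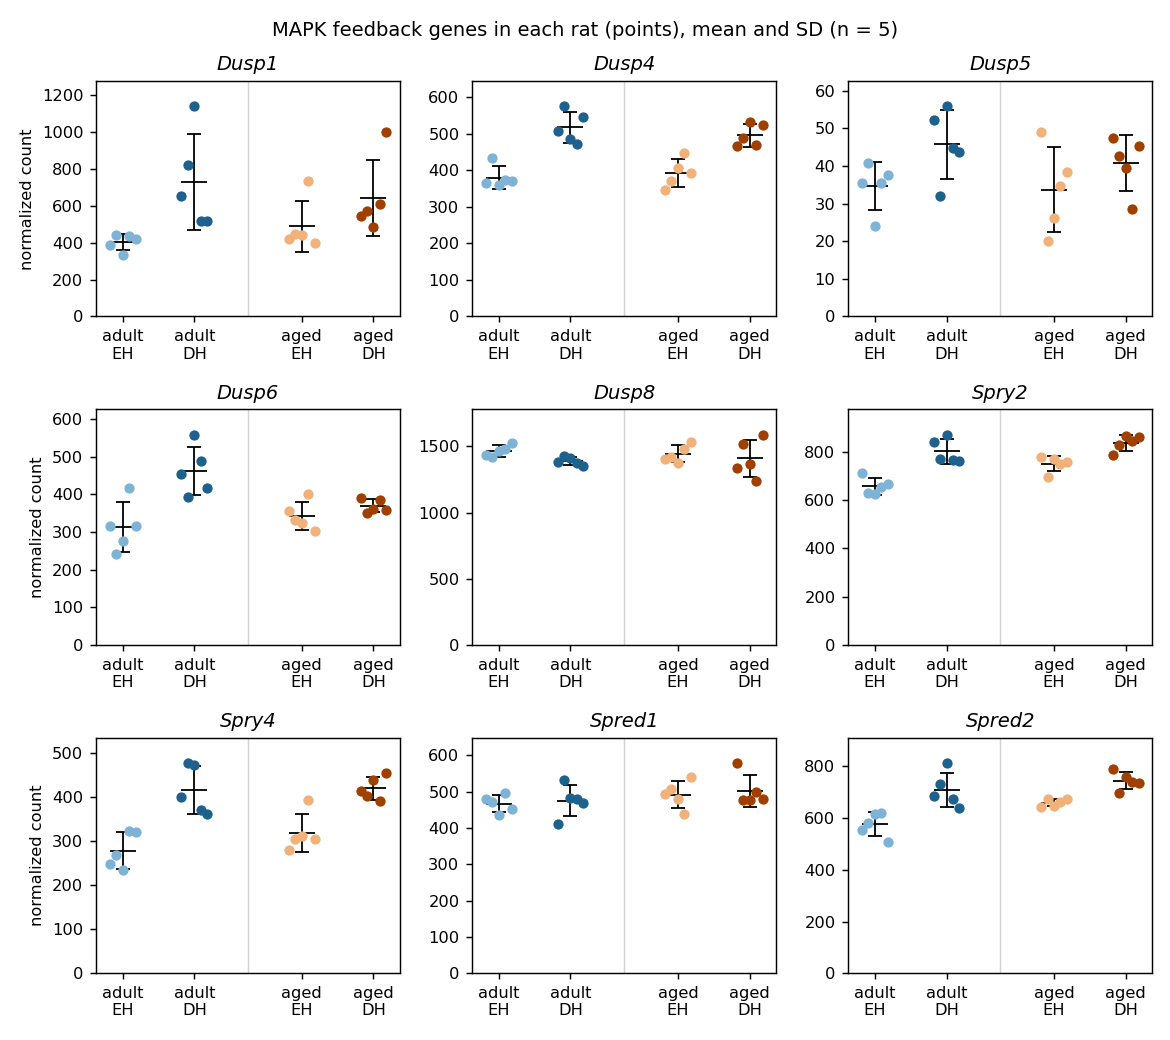
Normalized counts (y axes, from 0) of the 9 genes in each rat of the 4 groups, with the mean as a bar and the SD as error bars (n = 5). Adult rats come from the adult table and aged rats from the aged table. In adult rats the DH points of Dusp1, Dusp4, Spry2, Spry4 and Spred2 lie above all EH points, whereas those of Dusp8 and Spred1 overlap with them.

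Dusp1 (ENSRNOG00000003977) encodes a nuclear phosphatase, induced as an immediate-early gene, that acts on p38, JNK and ERK. Adult EH rats had 386, 442, 335, 435 and 419 normalized counts, in the order of their replicate numbers 1, 2, 4, 5 and 6. Adult DH replicates 1 to 5 had 654, 821, 1138, 514 and 516. The groups did not overlap, and the DH rats differed far more from one another than the EH rats did. The mean was 728 ± 261 in DH and 403 ± 44.0 in EH (SD, n = 5), and the LFC was 0.79 with an SE of 0.181 (limma adjusted p = 0.0117). The coefficient of variation of the DH rats was 35.9%, which is 9.17 times what counting error alone gives (3.91%). DH replicate 3 stood highest, and without it the LFC of Dusp1 was 0.61 and still called (limma adjusted p = 0.0303 at most with any 1 rat left out).

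Dusp4 (ENSRNOG00000011921) encodes another inducible nuclear phosphatase, which acts on ERK and JNK. Its normalized counts were 365, 433, 359, 373 and 371 in adult EH and 508, 575, 486, 471 and 546 in adult DH. Even the lowest DH rat exceeded the highest EH rat, which itself stood apart from the other EH rats. The means were 380 ± 30.2 and 517 ± 42.8 (SD, n = 5), with an LFC of 0.44 (SE 0.0700; limma adjusted p = 0.00103). Among the members this was the lowest adjusted p in adult DH.

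Dusp6 (ENSRNOG00000023896), the cytoplasmic phosphatase specific for ERK, had 317, 242, 275, 416 and 317 normalized counts in adult EH. Adult DH rats had 453, 393, 558, 488 and 418. In DH, 4 of 5 rats were above every EH rat, and the groups overlapped because EH replicate 5 exceeded DH replicate 2. The mean rose from 313 ± 65.5 to 462 ± 64.8 (SD, n = 5), with an LFC of 0.57 (SE 0.129; limma adjusted p = 0.0110). With the RNA integrity number as a covariate the LFC was 0.54 and the call was lost (limma adjusted p = 0.0782, the highest of 11 alternatives, of which the lowest was 0.000407). The paper's supplement gives the same integrity number for all adult EH rats. This covariate therefore varied among adult DH rats only and is partly confounded with DH.

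Dusp5 (ENSRNOG00000014061), a nuclear phosphatase specific for ERK, was the member with the fewest reads. It had 24.1 to 40.9 normalized counts in adult EH and 32.1 to 55.9 in adult DH. The LFC was 0.38 (95% confidence interval -0.02 to 0.79; limma adjusted p = 0.210), so that a rise could not be separated from the spread between rats. Recovered reads ran from 26 to 57 over both groups, and counting error alone gives a coefficient of variation of 16.8% in EH, against 18.3% measured. Depth therefore limits what can be said of this gene.

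Dusp8 (ENSRNOG00000029394), a phosphatase directed mainly at JNK and p38, went the other way. Adult EH rats had 1418 to 1530 normalized counts and adult DH rats 1354 to 1427, ranges that overlapped. The means were 1466 ± 43.9 and 1390 ± 30.5 (SD, n = 5), and the LFC of -0.08 was not called (limma adjusted p = 0.158). The rats of each group were nearly as alike as counting error allows, with coefficients of variation of 2.99% in EH and 2.19% in DH.

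Spry2 (ENSRNOG00000010058) and Spry4 (ENSRNOG00000013851) encode Sprouty proteins, which are themselves induced by ERK signalling. Spry2 had 712, 630, 625, 654 and 666 normalized counts in adult EH and 840, 771, 871, 764 and 763 in adult DH. No DH rat fell within the EH range. The means were 658 ± 34.8 and 802 ± 50.2 (SD, n = 5), with an LFC of 0.29 (SE 0.0532; limma adjusted p = 0.00327). Spry4 had 248, 268, 234, 323 and 320 in adult EH and 400, 477, 472, 372 and 362 in adult DH. The groups were again separate, and DH replicates 2 and 3 were the highest. The mean of Spry4 rose from 279 ± 41.2 to 417 ± 54.5 (SD, n = 5), with an LFC of 0.58 (SE 0.108; limma adjusted p = 0.00326).

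Spred1 (ENSRNOG00000005209) and Spred2 (ENSRNOG00000004888) encode relatives of Sprouty that bind neurofibromin and bring it to Ras. Spred2 had 553, 581, 617, 621 and 509 normalized counts in adult EH and 687, 734, 812, 675 and 640 in adult DH. All DH rats were above all EH rats. Its mean rose from 576 ± 46.8 to 710 ± 66.4 (SD, n = 5), with an LFC of 0.30 (SE 0.0713; limma adjusted p = 0.0147). Spred1 showed no such shift, with 435 to 495 in EH and 411 to 532 in DH. Its LFC was 0.02 (95% confidence interval -0.12 to 0.17; limma adjusted p = 0.876).

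The second comparison asked the same of aged rats, which share no animal with the adult comparison. Dusp4, Spry4 and Spred2 were called higher in aged DH, 3 of 9 members, and none was lower. Of 15346 genes tested, 4.05% were called higher and 3.25% lower. All 5 DH rats lay above all 5 EH rats in 3 of 9 members (Dusp4, Spry2 and Spred2), against 4.12% of all genes. The median LFC of the members was 0.17, and that of all genes was -0.00. The same 3 called genes were also called in adult DH.

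Dusp4 had 345, 372, 406, 447 and 392 normalized counts in aged EH replicates 1, 2, 4, 5 and 6, and 465, 488, 532, 469 and 524 in aged DH replicates 1, 2, 3, 5 and 6. The groups were separate. The means were 392 ± 38.03 and 496 ± 31.2 (SD, n = 5), with an LFC of 0.34 (SE 0.0733; limma adjusted p = 0.0119). The call held whichever single rat was left out.

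Spry4 had 280, 306, 312, 392 and 305 normalized counts in aged EH and 413, 403, 438, 392 and 454 in aged DH. Aged EH replicate 5 lay above the other EH rats and just above the lowest DH rat, which was the only overlap. The mean rose from 319 ± 42.9 to 420 ± 25.6 (SD, n = 5), with an LFC of 0.40 (SE 0.0853; limma adjusted p = 0.0108). Leaving out any 1 rat did not end this call.

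Spred2 had 642, 673, 648, 661 and 675 normalized counts in aged EH and 788, 698, 759, 741 and 735 in aged DH. The EH rats were close together and every DH rat was above them. The means were 660 ± 14.6 and 744 ± 33.1 (SD, n = 5), with an LFC of 0.17 (SE 0.0465; limma adjusted p = 0.0372). This call was fragile, since leaving out 1 rat ended it in 9 of 10 cases, with limma adjusted p up to 0.0932, and it held only without aged DH replicate 2. Spry2 was the reverse case, separate between the groups but not called. Its normalized counts were 779, 698, 769, 750 and 759 in aged EH and 786, 829, 864, 844 and 862 in aged DH, with an LFC of 0.16 (SE 0.0472; limma adjusted p = 0.0611).

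Dusp1 was not called in aged DH, and 1 rat of each group stood apart. Aged EH rats had 417, 445, 441, 736 and 399 normalized counts, where replicate 5 had the 736. Aged DH rats had 546, 571, 482, 607 and 999, where replicate 6 had the 999. Apart from EH replicate 5, every EH rat lay below every DH rat. The means were 488 ± 140 and 641 ± 205 (SD, n = 5), with an LFC of 0.38 (SE 0.187; limma adjusted p = 0.256). When both of these rats were left out, a choice made after their values were seen, the LFC was 0.37 and it was called (limma adjusted p = 0.0193, against up to 0.367 in the other alternatives). In that fit Spred2 was not called (limma adjusted p = 0.102), and Dusp4 and Spry4 were.

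Dusp6 had 356, 331, 324, 400 and 302 normalized counts in aged EH and 390, 351, 360, 384 and 359 in aged DH. The DH rats lay within the upper range of the EH rats. The LFC was 0.11 (95% confidence interval -0.05 to 0.28; limma adjusted p = 0.445). Dusp5 lay between 19.99 and 49.1 in aged EH and between 28.5 and 47.6 in aged DH, with an LFC of 0.31 (95% confidence interval -0.19 to 0.81; limma adjusted p = 0.498). Dusp8 (1375 to 1535 in EH and 1239 to 1589 in DH) and Spred1 (440 to 540 and 476 to 579) overlapped broadly, with LFCs of -0.04 and 0.03 that were not called (limma adjusted p = 0.777 and 0.876).

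**Figure D2:**
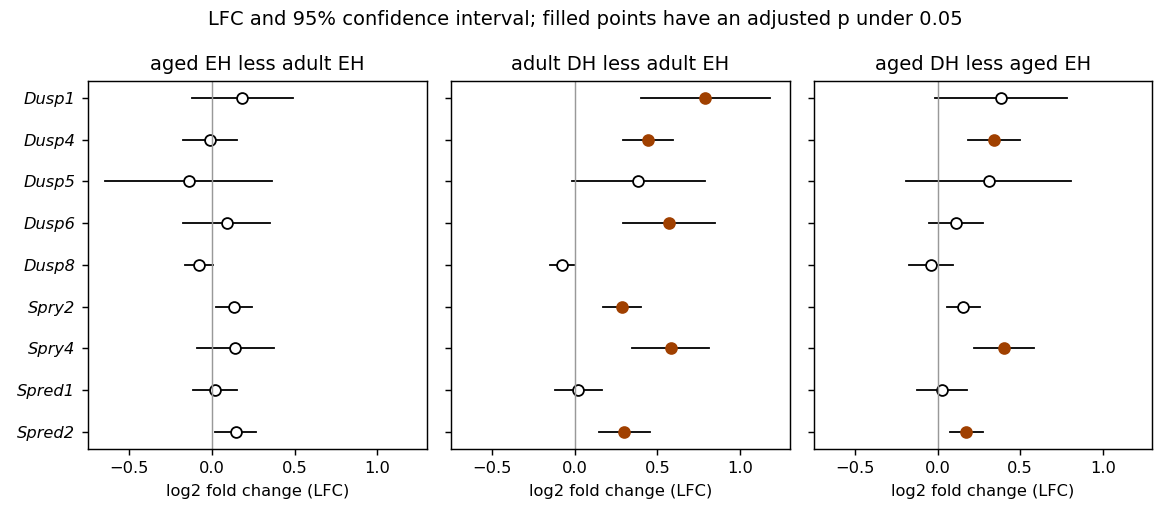
LFC (x axis, log2 scale) of each gene in the 3 comparisons, with its 95% confidence interval as a line. Filled points were called by limma, which holds for 0 of 9 genes in ageing, 6 of 9 in adult DH and 3 of 9 in aged DH.

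The third comparison asked whether the genes differed between the ages without DH. The EH rats of each age also serve as the controls of the DH comparisons. By limma 0 of 9 members were called, where 5.99% of 15369 genes were called, and 2 of 9 had an unadjusted p under 0.05, against 20.3% of all genes. No member separated aged EH from adult EH rats, whereas 6.38% of all genes did. The 2 members were Spry2, with an LFC of 0.14 (limma adjusted p = 0.141), and Spred2, with an LFC of 0.14 (limma adjusted p = 0.182). Spry2 had 780, 699, 769, 751 and 764 normalized counts in aged EH and 742, 656, 653, 682 and 694 in adult EH, and 4 of 5 aged rats exceeded every adult rat. Spred2 had 643, 674, 648, 662 and 679 in aged EH and 577, 605, 644, 647 and 530 in adult EH, and again 4 of 5 aged rats lay above all adult rats. Dusp1 had an LFC of 0.18 (95% confidence interval -0.12 to 0.49), which depended on aged EH replicate 5, since without that rat it was 0.03. The LFCs of the remaining members ran from -0.14 in Dusp5 to 0.14 in Spry4.

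Whether the response to DH differed between the ages was tested over all 20 rats, as the LFC in aged rats less the LFC in adult rats. The difference was called in 0 of 9 members, and limma called 0 of 15326 genes (0%). At an unadjusted p under 0.05 there were 1 of 9 members and 9.93% of all genes. The LFC was smaller in aged than in adult rats in 7 of 9 members, although the size of each difference was within error for all but 1. That member was Dusp6, with a difference of -0.46 (95% confidence interval -0.79 to -0.13; limma adjusted p = 0.334), which did not pass adjustment. Dusp1 differed by -0.41 (95% confidence interval -1.01 to 0.19; limma adjusted p = 0.688) and Spry4 by -0.18 (95% confidence interval -0.48 to 0.12; limma adjusted p = 0.737). Spry2 and Spred2 both differed by -0.13, with 95% confidence intervals of -0.27 to 0.01 and -0.30 to 0.05. Dusp4 differed by -0.10 (95% confidence interval -0.32 to 0.11). The genes called in adult DH alone are thus not shown to respond differently with age.

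**Figure D3:**
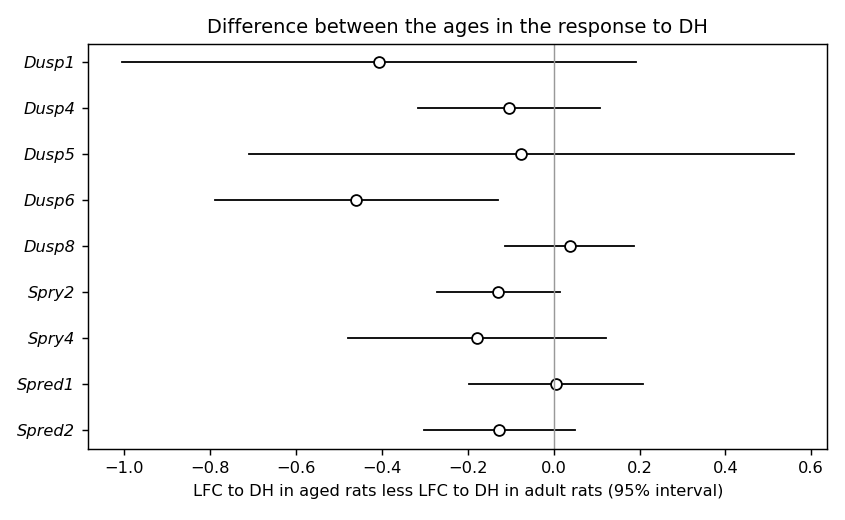
Response to DH in aged rats less that in adult rats (x axis, difference of LFCs, log2 scale) for each gene, with its 95% confidence interval as a line. The interval of Dusp6 (-0.79 to -0.13) is the only one without 0, and no gene passed adjustment.

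The members did not all follow the same rats. Adult DH replicate 3 was the highest DH rat in 5 of 9 members and replicate 2 in the other 4. Among aged DH rats replicate 1 was highest in 4 members and replicate 6 in 3, and in aged EH replicate 5 was highest in 4. Over the 10 rats of each DH table, with EH and DH pooled so that the difference between them enters, Pearson's r between Dusp4 and Spry4 was 0.81 in adult and 0.97 in aged rats, as a description on log2 values. Between Dusp1 and Spry4 it was 0.91 and 0.75. Dusp1 and Spred1 had 0.30 and -0.39.

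Among 13099 genes with a mean of at least 50, the 3 whose pattern was most like each called member were ranked by the mean r over these tables of 10 rats, again as a description that includes the difference between EH and DH. For Dusp1 they were Fos (0.949), Nr4a1 (0.913) and Ier2 (0.894), all of them immediate-early genes. For Spry4 they were Fos (0.912), Fosl2 (0.911), which encodes a Fos family transcription factor, and Gpr3 (0.904), which encodes a constitutively active receptor. Dusp4 was closest to Ankrd55 (0.935), Plekhb2 (0.919) and Prr5 (0.914). Spry2 was closest to the amino acid transporter gene Slc7a1 (0.901), Tor4a (0.892) and Eaf1 (0.888). Spred2 was closest to the proliferation marker Mki67 (0.921), Gas6 (0.897) and the cell cycle phosphatase gene Cdc25a (0.881). Dusp6 had the weakest likenesses, to Galnt7 (0.838), Nop9 (0.823) and Slc4a11 (0.800).

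**Figure D4:**
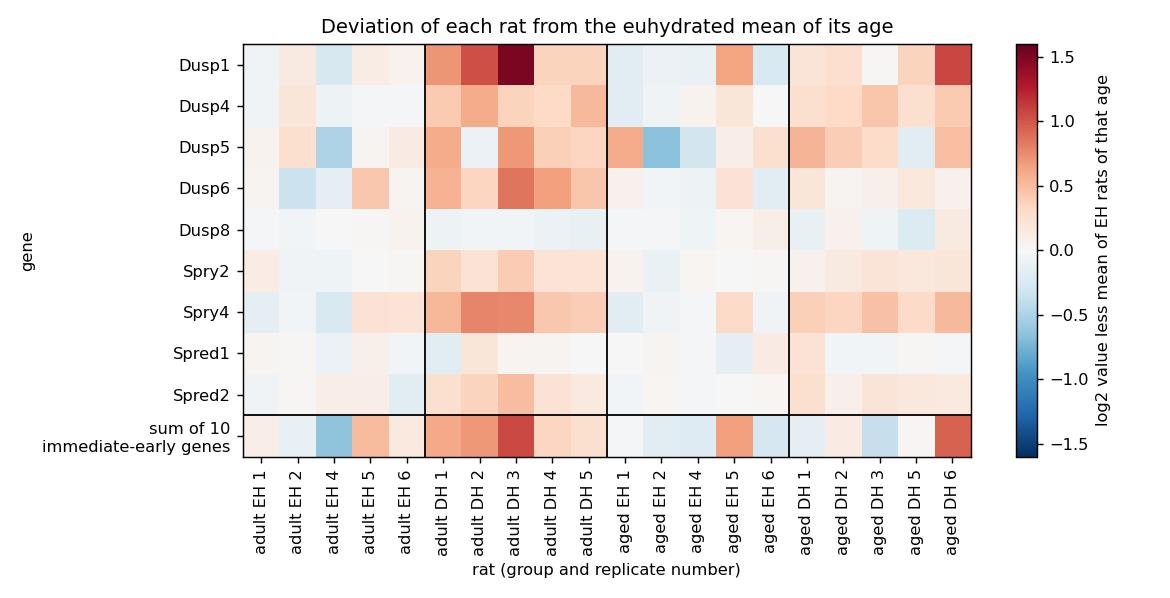
Deviation of each rat (columns, group and replicate number) from the mean of the EH rats of its age, on the log2 scale, for the 9 genes and for the summed normalized counts of 10 immediate-early genes (rows). Red is above and blue below that mean. Adult DH replicate 3, aged EH replicate 5 and aged DH replicate 6 are the highest rats of their groups in both Dusp1 and the immediate-early sum.

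The rats that stood apart in Dusp1 also stood high in 10 immediate-early genes, which include Fos, Egr1, Arc and Nr4a1. Their summed normalized counts ran from 1814 to 4043 in adult EH and from 3405 to 5933 in adult DH, with replicate 3 the highest. The sums of aged EH rats lay between 2604 and 4940, with replicate 5 the highest, and those of aged DH rats between 2426 and 6018, with replicate 6 the highest. In adult DH 3 of the 10 were called higher, against 7.67% of all genes, which were Nr4a1 (LFC 1.25), Fos (1.13) and Ier2 (0.53). In aged DH none was called higher and Egr4 was called lower (-1.004), against 4.05% and 3.25% of all genes. The 3 genes called in adult DH had LFCs above 0 in aged DH without passing the threshold. These were Fos (0.78, limma adjusted p = 0.0740), Ier2 (0.42, limma adjusted p = 0.0626) and Nr4a1 (0.54, limma adjusted p = 0.198). The list of 8 genes known to respond to glucocorticoids moved with the adult result too, with 6 of 8 called higher in adult DH, among them Sgk1 (1.02) and Fkbp5 (0.59), and 0 of 8 called in aged DH by limma, where 2 had an unadjusted p under 0.05. Their part in the values of the members was not tested.

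Relatives of the members outside the 9 genes were examined as families. Of 5 other MAPK phosphatases, Dusp2, Dusp7, Dusp10 and Dusp16 were tested and Dusp9 fell below the filter, and limma called 0 of 4 in each comparison, with 0 at an unadjusted p under 0.05. In adult DH their LFCs ran from -0.07 in Dusp7 to 0.33 in Dusp2. Across all genes, 7.67% were called higher in adult DH, 4.05% higher in aged DH and 5.99% in either direction in ageing. Of the other Sprouty and Spred genes, Spred3 and Spry3 rose in adult DH, with LFCs of 0.65 (limma adjusted p = 7.83e-05) and 0.44 (limma adjusted p = 0.00170). Spry1 had 0.30 (limma adjusted p = 0.0693). In aged DH only Spred3 of these 3 genes was called, with an LFC of 0.28 (limma adjusted p = 0.0368), and Spry3 had 0.04 (limma adjusted p = 0.895). Of these 3 genes Spred3 alone was also called in ageing, with an LFC of 0.31 (limma adjusted p = 0.0494). Tested between the ages, the responses of Spred3 (-0.37, limma adjusted p = 0.258) and Spry3 (-0.40, limma adjusted p = 0.310) did not differ past the threshold.

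Of 14 tested atypical and other dual-specificity phosphatases, which mostly act on substrates other than MAPKs, 1 rose and 1 fell in each DH comparison. Across all genes, 7.67% were called higher and 4.99% lower in adult DH, and 4.05% and 3.25% in aged DH. A count of 1 of 14 is close to these shares. Dusp3 was the riser in both, with LFCs of 0.23 in adult DH and 0.26 in aged DH. The genes that fell were Dusp15 in adult DH (-0.23) and Ssh3 in aged DH (-0.32). In ageing Dusp3 was called higher (0.15, limma adjusted p = 0.0311) and Dusp18 lower (-0.21, limma adjusted p = 0.0143), where 5.99% of all genes were called. Of 18 other attenuators of receptor tyrosine kinase and ERK signalling, Errfi1, which encodes an inhibitor of the EGF receptor, rose in adult DH (0.36). In aged DH Lrig1 rose (0.19), and Rasal1 (-0.59) and Rasal2 (-0.17), which encode GTPase-activating proteins, fell.

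Some components of the kinase cascades were called. Of all genes tested, 7.67% were called higher and 4.99% lower in adult DH, and 4.05% and 3.25% in aged DH. Of 27 tested ERK cascade genes, 3 rose (Shc1, 0.26, Rps6ka3, 0.24, and Hras, 0.15) in adult DH, and 2 rose in aged DH (Hras, 0.17, and Ptpn11, 0.16). Of 20 JNK and p38 cascade genes, Map2k4 rose (0.17) and Map2k6 fell (-0.24) in adult DH, and limma called 0 in aged DH, where 6 had an unadjusted p under 0.05. The median LFC of the ERK cascade list was -0.00 in adult DH and 0.01 in aged DH.

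Upstream, 4 of 18 tested ligands of receptor tyrosine kinases rose in adult DH (Fgf9, 0.57, Nrg1, 0.39, Pdgfb, 0.30, and Vegfa, 0.21) and Fgf10 fell (-0.64). The shares of all genes called under DH were as given above for the cascades. In aged DH Fgf9 (0.48), Pdgfb (0.32) and Nrg1 (0.28) rose. Of 18 receptors 5 rose in adult DH, led by Met (0.79) and Ret (0.65), and Fgfr2 fell (-0.22), and in aged DH Fgfr1 alone was called (0.14). Downstream, of 14 transcripts known to follow ERK activity, 6 rose in adult DH, led by Fosl1 (3.40), Maff (1.22), Etv5 (0.79) and Etv4 (0.62), which encode transcription factors, and Ccnd1 (-0.21) and Elk1 (-0.17) fell. In aged DH the same leading 4 rose, Fosl1 (1.88), Maff (1.17), Etv4 (0.64) and Etv5 (0.35), and none fell. Transcripts of this list also differed between the ages without DH. In ageing Fosl1 (1.39), Etv5 (0.49) and Etv1 (0.48) were called higher, and Ccnd1 (-0.39) and Elk1 (-0.19) lower. Across all genes, 5.99% were called in ageing. A difference between the ages was called by limma in none of the genes of these lists. An unadjusted p under 0.05 was found for 9.93% of all genes in that test. Among the relatives it was found for 0 of 4 other MAPK phosphatases, 2 of 3 other Sprouty and Spred genes (Spred3 and Spry3) and 3 of 14 atypical and other dual-specificity phosphatases. In the pathway lists it was found for 5 of 18 other attenuators, 3 of 27 ERK cascade genes, 1 of 20 JNK and p38 cascade genes, 2 of 18 ligands, 5 of 18 receptors and 4 of 14 ERK-following transcripts. It was also found for 1 of 10 immediate-early genes and 6 of 8 glucocorticoid-responsive genes.

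Markers of the cell types that a punch can hold were read beside these results. Across all genes, 7.67% were called higher and 4.99% lower in adult DH, and 4.05% and 3.25% in aged DH. Of 7 magnocellular neuron markers, 4 were called higher in adult DH, led by Creb3l1 (1.91) and Caprin2 (1.82), and 3 in aged DH. Their summed normalized counts ran from 209607 to 300699 in adult EH and from 307878 to 408001 in adult DH, and between 271398 and 389192 in aged EH and 326947 and 539416 in aged DH. Of 7 markers of cortical glutamatergic neurons, which lie outside the SON, 5 fell in aged DH, led by Neurod6 (-2.49) and Slc17a7 (-1.92), and 1 fell in adult DH. Their sums lay between 11943 and 19093 in aged EH, 7018 and 10695 in aged DH, 10447 and 18109 in adult EH, and 7829 and 13912 in adult DH. Of 4 blood markers 1 fell in each DH comparison, with sums of 10275 to 21520 in adult EH and 6444 to 15792 in adult DH, and of 9170 to 22929 in aged EH and 7145 to 13032 in aged DH. Of the markers of GABAergic neurons, astrocytes, microglia and meningeal fibroblasts, limma called 0 of 18 in either DH comparison (7 had an unadjusted p under 0.05 in adult DH and 4 in aged DH), and at most 1 in each of the lists for oligodendrocytes, their precursors and endothelial and mural cells. Col1a2 was listed at 0 in every rat and Pecam1 was not found, and each other marker was above 0 in at least 1 rat of every group. The part of cell composition in the values of the members was not tested.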

How the data were processed

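SON libraries of 20 rats were analysed, with 5 in each group taken from the sample labels. The authors trimmed reads, aligned them to Rn6 with STAR and made gene counts with featureCounts. The signal in each deposited library column is the count divided by the authors' DESeq2 size factor, estimated within each of 3 tables. The deposited tables also hold the authors' own fold changes, p-values and adjusted p-values, which were not used. All 30 per-sample columns were used. For adult rats 100% of values gave whole reads within 0.1 read.

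Genes with a mean of at least 10 were tested with limma 3.58.1 in R 4.3.3, whose empirical Bayes prior was allowed to vary with mean expression. Each comparison was fitted on its own table, and the difference between the ages over 20 rats from the DH tables. The recovered adult reads were also tested by edgeR 4.0.16, which called 1936 genes, and by DESeq2 1.42.0, which called 2243. RNA integrity numbers from the paper's supplement served as a covariate in an alternative. On simulated tables in which 200 genes were changed, the limma fit recovered 87% of genes changed by 0.5 on the log2 scale in adult DH, 86% in aged DH, 84% in ageing and 72% in the difference between the ages. Beyond counting error, every gene was simulated with the same spread between rats, and no rat was made to stand apart. These shares therefore do not hold for members with a wider spread, such as Dusp1, Dusp6 and Spry4 in adult rats. Nor need they hold for Dusp5, which had few reads. Each library is a separate animal by the identifiers in the paper's supplement, so p-values measure the spread between rats. The methods state that rats were housed 3 to a cage and that whole cages were assigned to EH or DH. Cages are not given for the libraries, so an effect of the cage cannot be told apart from that of DH.

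The members and lists were chosen with earlier results of these data known. Values per rat are given for the members alone. Named genes of other lists are mostly the called members with the largest absolute LFC, up to 4 a list, comparison and direction. Also named are all genes of the lists of other MAPK phosphatases and of other Sprouty and Spred genes. Defining cell type markers and the 3 genes most like each member called under DH are named too. Promoter windows were taken from RefSeq on GRCr8 and positions of genes on Rn6 are not given. Alternatives changed the pseudocount, filter, scaling, prior, covariates or threshold, or left out a rat. Figures were drawn with matplotlib 3.10.9. The result of 1 gene of the ERK cascade list is not reported here.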

Additional observations from a re-analysis of the deposited data

Results flagged for a closer look

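Within groups of 5 rats, the gap between an extreme rat and its nearest neighbour was set against the range of the group. It exceeded Dixon's 95% critical value in 5 of 36 combinations of member and group, where chance alone flags about 1 in 20. Dusp1 had 736 normalized counts in aged EH replicate 5, against 399 to 445 in the other aged EH rats, and 999 in aged DH replicate 6, against 482 to 607. Spry4 had 392 in the same aged EH replicate 5, against 280 to 312. Dusp4 had 433 in adult EH replicate 2, against 359 to 373. Spred1 had 579 in aged DH replicate 1, against 476 to 498. The cause of these deviations was not tested.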

How the results depend on the processing

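In adult DH, limma called 6 members whichever rat was left out (6 to 6), and edgeR and DESeq2 on the recovered reads called the same 6. With an absolute LFC of at least 0.5, 3 remained (Dusp1, Dusp6 and Spry4) and 304 genes in all, against 1934. With RIN as a covariate, which varied among adult DH rats only, 1005 genes were called, and leaving out a rat gave 1463 to 1743. In aged DH, leaving out a rat gave 2 to 3 members and 678 to 1186 genes, against 1119. An absolute LFC of at least 0.5 left 0 members and 218 genes, a constant prior gave 671 genes, and leaving out the 2 rats apart in Dusp1, chosen after seeing the data, gave 729. Spred2 was not called in aged DH with the same total per library (limma adjusted p = 0.0585). In ageing, 0 members were called with each rat left out (0 to 0), with 594 to 906 genes against 921, 516 with a constant prior and 303 at an absolute LFC of at least 0.5. In the difference between the ages 0 members were called throughout (0 to 0), and 0 to 5 genes, with 1 under a constant prior.

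Deviations of same-numbered rats correlated between -0.0825 and 0.134 in adult DH, -0.0616 and 0.162 in aged DH and -0.0484 and 0.124 in ageing. They were not set against those of rats with different numbers, so they do not settle whether replicate numbers pair the rats. With a replicate block, adult DH had 4 members called and 987 genes (limma adjusted p = 0.0514 for Dusp6 and 0.113 for Spred2). Aged DH with the replicate block had 0 members and 653 genes (limma adjusted p = 0.0580 for Dusp4, 0.0790 for Spry4 and 0.201 for Spred2), and the difference between the ages 1 gene.

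Signs changed only in LFCs that were not called. With the same total per library Spred1 had -0.012 in ageing and -0.0043 in adult DH, with quantile normalization Dusp4 had 0.00099 in ageing, and with the replicate block Spred1 had -0.0040 in the difference. With a rat left out, the ranges crossing 0 were -0.060 to 0.035 for Dusp4, -0.29 to 0.024 for Dusp5 and -0.018 to 0.057 for Spred1 in ageing, -0.020 to 0.073 for Spred1 in adult DH, -0.025 to 0.062 for Spred1 and -0.084 to 0.0056 for Dusp8 in aged DH, and -0.047 to 0.047 for Spred1, -0.24 to 0.074 for Dusp5 and -0.0074 to 0.082 for Dusp8 in the difference. The cause of these changes was not tested. Whole reads were not recovered in the other tables, so edgeR and DESeq2 were run for adult DH only. Depth limits Dusp5 most.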
